A study of Mus musculus with 8 samples.

Results

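The expression of 10 heat shock protein and chaperone genes was followed through liver RNA-seq of RORα f/f and liver-specific RORα knockout (LKO) mice on a control diet (CD) or a high-fat diet (HFD). These genes, taken by symbol from 38283 genes in the deposited table, were *Hspb1*, *Hspa1a*, *Hspa1b*, *Hspa8*, *Hsp90aa1*, *Hsp90ab1*, *Hsph1*, *Dnajb1*, *Hspd1* and *Hspe1*. They were selected on FPKM of these same libraries, with the differences between genotypes and diets known, so that their levels and differences are descriptions and test nothing. All mice were C57BL/6 and carried *Rora* alleles with loxP sites around exons 4 and 5 (RORa f/f). The LKO mice also carried Cre recombinase under the albumin promoter (Alb-cre;RORa f/f), which is active in hepatocytes. Feeding on CD or HFD lasted 10 weeks from 8 weeks of age. Livers of 2 mice were pooled for a library, and each of the 4 groups had 2 libraries. Levels are FPKM, fragment numbers relative to transcript length and sequencing output, so that genes can be compared, and no read counts were used here.

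Heat shock proteins bind unfolded or newly made proteins and help them fold, assemble or be degraded. *Hspa8* encodes the constitutive cytosolic Hsp70 (Hsc70) and *Hspa1a* and *Hspa1b* the stress-inducible Hsp70, which work with J-domain partners such as *Dnajb1* and with nucleotide exchange factors such as *Hsph1* (Hsp110). *Hsp90aa1* and *Hsp90ab1* encode the inducible and the constitutive cytosolic Hsp90, which mature kinases and steroid receptors, among them the glucocorticoid receptor of hepatocytes. *Hspd1* and *Hspe1* encode the chaperonin Hsp60 of the mitochondrial matrix and its lid Hsp10, and *Hspb1* encodes Hsp27, a small heat shock protein that holds unfolded proteins and acts on actin. Heat shock factor 1 induces many of these genes through heat shock elements, arrays of inverted GAA units.

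Stretches upstream of transcription starts are shown because they hold the heat shock element letters of 6 members, the sequence feature for which these genes are known. They were read from RefSeq on GRCm38.p6, in the direction of the gene, and the capitals mark alternating inverted units, GAANNTTC or TTCNNGAA and longer runs of them. Both motifs read the same on either strand and overlap each other in a longer run. The stretch of *Hspb1* lies at chr5:135887789-135887848 (plus strand). Those of *Hspa1a* and *Hspa1b* lie at chr17:34972227-34972286 and chr17:34959309-34959368 (minus strand) and have the same letters. The stretch of *Hspe1*, shared with the divergent gene *Hspd1*, lies at chr1:55088053-55088082 (plus strand), and that of *Hsph1* at chr5:149636351-149636380 (minus strand).
Hspb1: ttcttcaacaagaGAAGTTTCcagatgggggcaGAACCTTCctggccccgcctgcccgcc
Hspa1a and Hspa1b: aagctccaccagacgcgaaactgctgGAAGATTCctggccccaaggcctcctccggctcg
Hspe1: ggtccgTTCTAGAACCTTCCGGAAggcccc
Hsph1: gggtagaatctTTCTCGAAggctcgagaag

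*Hspb1* held 2 separate matches, 117 to 110 and 97 to 90 bases before its start. The run at *Hspe1*, 18 bases long, lies 72 bases before the *Hspe1* start, in sequence also annotated as exonic. RefSeq gives 2 starts for *Hspd1*. The run lies 127 bases before the one at 55087932, within the 215 bases that separate it from the *Hspe1* start, but inside the gene as read from the one at 55088243, whose window held no match. The match of *Hsph1* lies 33 to 26 bases before its upstream start and inside an exon of another annotated transcript. Of 32851 RefSeq windows of 250 bases before a start, 12.8% held at least 1 match to GAANNTTC or TTCNNGAA, and 0.466% held GAANNTTC extended by NNGAA or TTCNNGAA extended by NNTTC, as the *Hspe1* window does. The windows of *Dnajb1* held no match to these letters. No window was read for *Hspa8*, *Hsp90aa1* or *Hsp90ab1*. These are letter matches in the reference and not measured binding sites.

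**Figure D1:**
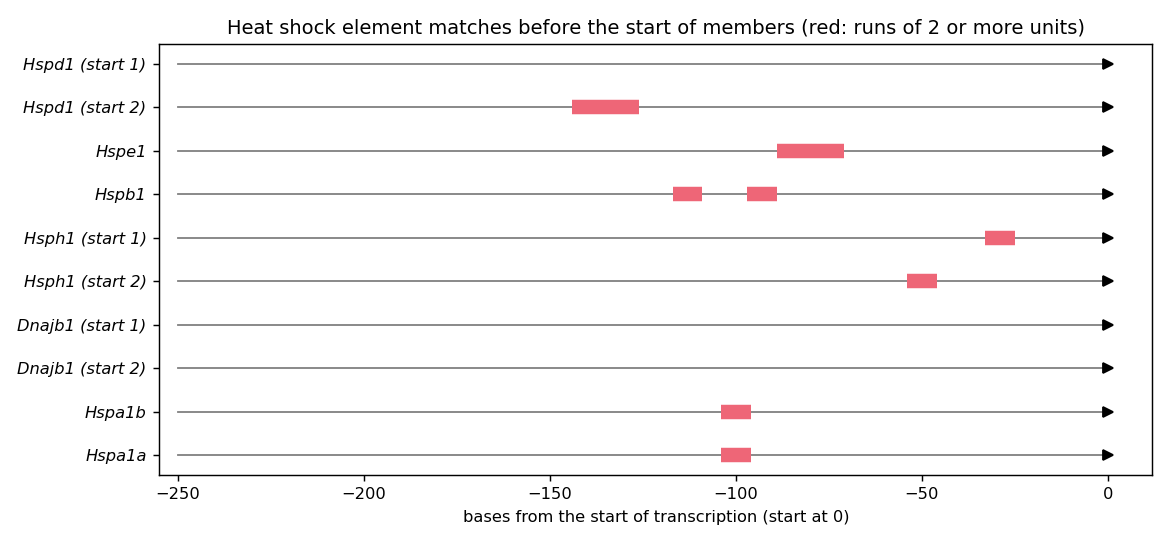
Positions of the heat shock element letters before the transcription starts of members with a RefSeq window, in bases from the start at 0. Red blocks are runs of 2 or more alternating GAA units, and *Hspb1* has 2 blocks, at 117 and 97 bases before its start.

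Averaged over the 8 libraries, FPKM was 344 for *Hspa8* (chromosome 9 of GRCm38, 40800984 to 40810087, plus strand), 307 for *Hsp90ab1* (chromosome 17, 45567775 to 45573271, minus strand), 226 for *Hspd1* (chromosome 1, 55077835 to 55088243, minus strand) and 163 for *Hspe1* (chromosome 1, 55088132 to 55091307, plus strand). The constitutive and mitochondrial chaperones ranked 212, 233, 317 and 456 from the top among the 11634 genes that exceeded FPKM 1 somewhere in the 8 libraries. *Hsp90aa1* (chromosome 12, 110690605 to 110702728, minus strand) followed at 35.9. *Hsph1* (chromosome 5, 149614287 to 149636376, minus strand) at 9.50 and *Hspb1* (chromosome 5, 135887919 to 135889563, plus strand) at 9.32 did not differ beyond the spread of their libraries. *Dnajb1* (chromosome 8, 83608193 to 83612653, plus strand) stood at 5.96. The inducible Hsp70 genes were lowest, with 1.51 for *Hspa1b* (chromosome 17, 34956436 to 34959238, minus strand) and 0.105 for *Hspa1a* (chromosome 17, 34969190 to 34972156, minus strand). The neighbours *Hspa8* and *Hsp90ab1* overlapped across libraries (297 to 415 and 274 to 351), and *Hspd1* (199 to 252) overlapped *Hspe1* (134 to 202) in the extremes.

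*Hspa1a* did not reach FPKM 1 in any library, so that 9 of the 10 members entered the fit. The coding sequences of *Hspa1a* and *Hspa1b* are 99.4% identical, with 8 mismatched bases, and how their shared fragments were divided between them is uncertain. Their upstream windows differed at 3 of 250 positions. The Hsp90 pair is 75.6% identical in its coding sequence and *Hspa1b* is 74.1% identical to *Hspa8*. Pseudogenes whose symbols are formed from *Hspd1* and *Hspe1* numbered 2 and 5, with a highest FPKM of 1.15. Pseudogenes under other names were not counted.

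**Figure D2:**
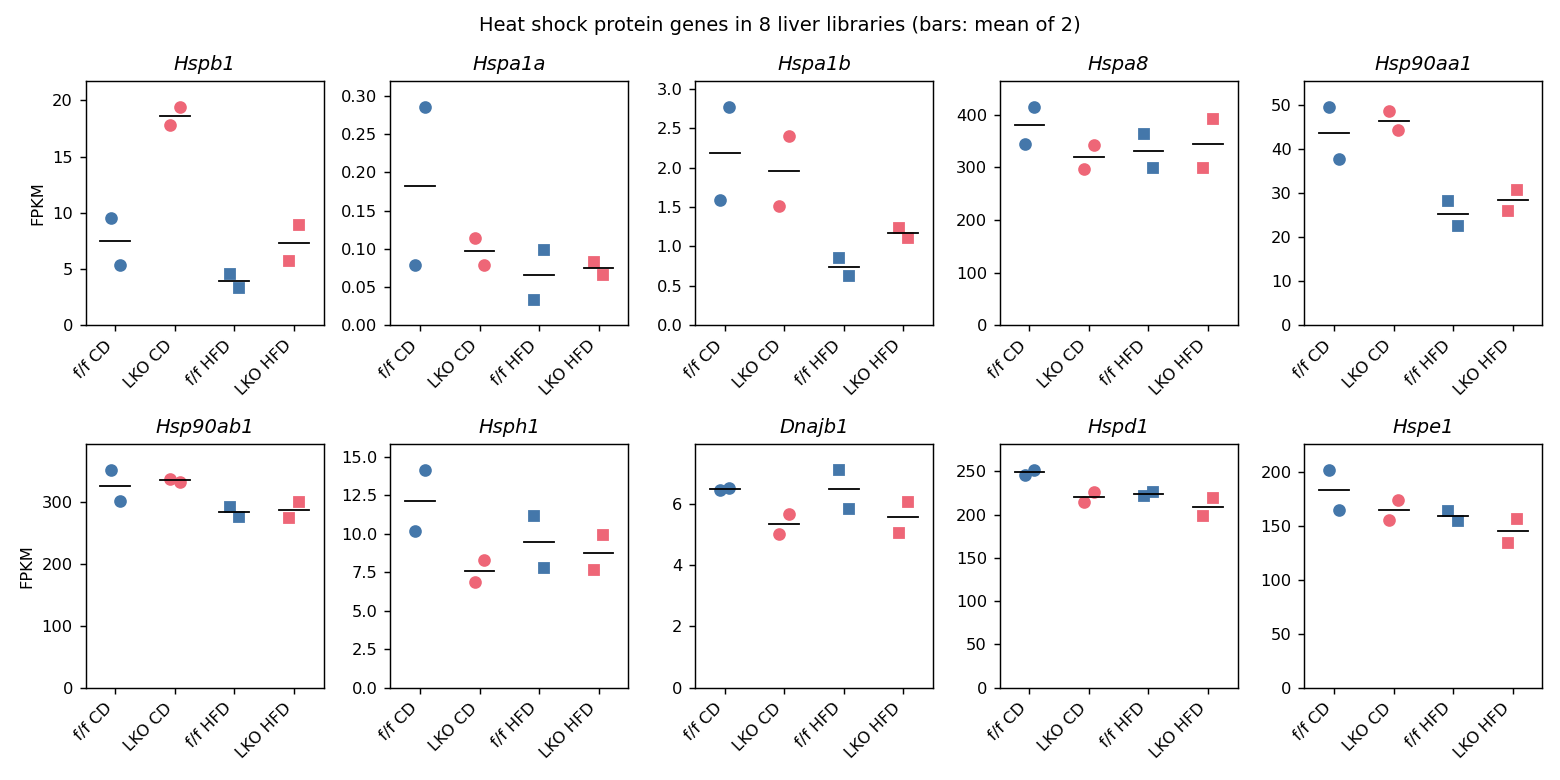
FPKM of the 10 members in the 8 libraries, 1 panel per gene on a linear axis from 0 (circles CD, squares HFD, blue f/f-labelled, red LKO-labelled, black bars the mean of 2 libraries). *Hsp90aa1* and *Hspa1b* were lower in all 4 HFD libraries than in all 4 CD libraries. *Hsp90ab1* was so too, but narrowly, at 299.8 in the highest HFD and 300.5 in the lowest CD library. *Hspb1* was highest in the 2 CD-fed LKO libraries at 17.8 and 19.4.

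*Hsp90aa1* and *Hspa1b* were lower on HFD than on CD under both genotype labels. The FPKM of *Hsp90aa1*, the stress-inducible Hsp90, was 49.5 and 37.6 in the CD-fed f/f libraries, 48.5 and 44.4 in the CD-fed LKO libraries, 28.1 and 22.4 in the HFD-fed f/f libraries and 26.0 and 30.7 in the HFD-fed LKO libraries. Every HFD library lay below every CD library. Differences are given as log2 of FPKM + 1 after quantile normalization, a scale that shrinks the change of genes with low FPKM. HFD minus CD was −0.72 in f/f mice (standard error 0.15) and −0.65 in LKO mice (standard error 0.15). The Hsp70 partners *Hsph1* and *Dnajb1* did not share this fall. HFD minus CD was −0.31 and 0.01 for them in f/f mice and 0.22 and 0.07 in LKO mice, and their diets overlapped under each label. In bulk liver, fewer cells of a type and less RNA per cell cannot be told apart.

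*Hspa1b*, the inducible Hsp70, was 1.59 and 2.77 FPKM in the CD-fed f/f libraries and 1.51 and 2.40 in the CD-fed LKO libraries, against 0.847 and 0.624 in the HFD-fed f/f libraries and 1.24 and 1.11 in the HFD-fed LKO libraries. Again no HFD library reached the lowest CD library. The log2 difference was −0.86 in f/f mice and −0.41 in LKO mice (standard error 0.22 for each). After quantile normalization, 16.7% of all genes tested separated the 4 HFD-fed from the 4 CD-fed libraries in either direction. Of the 9 members 2 did, *Hsp90aa1* and *Hspa1b*.

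The constitutive Hsp90 gene differed less between the diets. *Hsp90ab1* was 351 and 300 FPKM in the CD-fed f/f libraries, 336 and 332 in the CD-fed LKO libraries, 290 and 276 in the HFD-fed f/f libraries and 274 and 300 in the HFD-fed LKO libraries. In FPKM as deposited every HFD library lay below every CD library, with 299.8 and 300.5 as the nearest values. After quantile normalization the diets overlapped. The log2 difference between the diets was −0.09 in f/f mice and −0.05 in LKO mice (standard error 0.09 for each). The ratio of *Hsp90aa1* to *Hsp90ab1* within a library, which depends on no scaling between libraries, was 0.125 to 0.144 in the 4 CD libraries and 0.0812 to 0.102 in the 4 HFD libraries. The ratio of *Hspa1b* to *Hspa8* likewise ran from 0.00462 to 0.007 on CD and from 0.00208 to 0.00413 on HFD.

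*Hspb1* had the widest spread of the members with FPKM above 1, with the highest library 5.88 times the lowest. Its FPKM was 9.55 and 5.36 in the CD-fed f/f libraries, 17.8 and 19.4 in the CD-fed LKO libraries, 4.58 and 3.30 in the HFD-fed f/f libraries and 5.71 and 8.87 in the HFD-fed LKO libraries. The LKO-labelled libraries lay above the f/f-labelled libraries on each diet, and the HFD libraries lay below the CD libraries under each label. LKO minus f/f was 1.27 on CD and 0.74 on HFD on the log2 scale, and HFD minus CD was −0.71 in f/f mice and −1.24 in LKO mice (standard error 0.27 for each). The difference between the genotype effects was −0.53 (standard error 0.39). The CD-fed f/f libraries were unequal, and the CD genotype value was 0.91 without replicate 2 of that group and 1.63 without replicate 1. Markers of red blood cells lay on the same side of 0 as *Hspb1*. The 5 erythroid markers tested were all above 0 for the genotype on CD (median 1.11) and on HFD (median 0.40) and all below 0 for the diet in f/f mice (median −0.48) and in LKO mice (median −1.18). Of them *Alas2*, which makes heme in red cell precursors, fell in LKO mice by 0.66 (limma adjusted p = 0.0313), and 0 passed in the other comparisons. The summed FPKM of the 6 erythroid markers listed was 85.9 and 420 in the CD-fed f/f libraries and 247 and 502 in the CD-fed LKO libraries. It was 65.8 and 228 in the HFD-fed f/f libraries and 198 and 121 in the HFD-fed LKO libraries. In every group but CD-fed LKO, the replicate with more *Hspb1* held the lower sum. The sums overlapped between the diets and between the genotype labels. The part of these markers in the differences of *Hspb1* was not tested.

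*Hspb8*, a small heat shock protein that works with the Hsp70 cochaperone *Bag3*, was measured beside it as a gene of the same family. The ratio of *Hspb1* to *Hspb8* was 0.118 and 0.0657 in the CD-fed f/f libraries, 0.179 and 0.225 in the CD-fed LKO libraries, 0.0741 and 0.0493 in the HFD-fed f/f libraries and 0.108 and 0.132 in the HFD-fed LKO libraries. The genotype labels were apart on each diet in this ratio too.

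**Figure D3:**
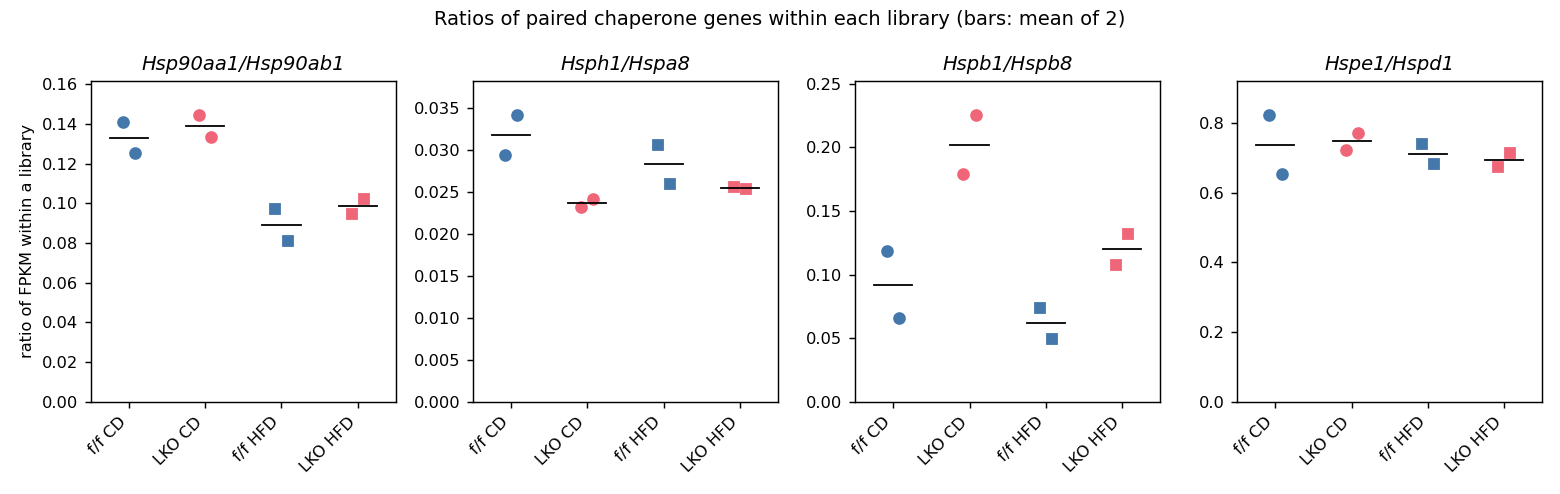
Ratios of the FPKM of paired chaperone genes within each library, on linear axes from 0 (circles CD, squares HFD, blue f/f-labelled, red LKO-labelled, bars the mean of 2). *Hsp90aa1* to *Hsp90ab1* separated the diets, and *Hspe1* to *Hspd1* stayed between 0.654 and 0.822. *Hsph1* to *Hspa8* was lower in the LKO-labelled libraries, with 0.0256 and 0.0259 as the nearest values of the 2 labels.

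The partners of Hsp70 stood lower in LKO-labelled than in f/f-labelled libraries on CD. *Hsph1*, the Hsp110 exchange factor, was 10.2 and 14.2 FPKM in the CD-fed f/f libraries, 6.88 and 8.31 in the CD-fed LKO libraries, 11.1 and 7.76 in the HFD-fed f/f libraries and 7.67 and 9.91 in the HFD-fed LKO libraries. The groups were apart on CD and overlapped on HFD, with log2 differences of −0.59 and −0.06 (standard error 0.21 for each). The difference between these was 0.53 (standard error 0.30). f/f replicate 2 on CD held the highest value of *Hsph1*, and the CD difference was −0.36 without it and −0.81 without replicate 1.

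*Dnajb1*, the J-domain partner, was 6.45 and 6.50 FPKM in the CD-fed f/f libraries and 5.02 and 5.67 in the CD-fed LKO libraries, and on HFD 7.10 and 5.83 in f/f and 5.05 and 6.06 in LKO. The LKO libraries lay below on CD and overlapped the f/f libraries on HFD, with log2 differences of −0.23 and −0.18 (standard error 0.11 for each). Against *Hspa8*, the ratio of *Hsph1* was 0.0232 to 0.0256 in the 4 LKO libraries and 0.0259 to 0.0341 in the 4 f/f libraries, so that the nearest values almost met. The ratio of *Dnajb1* to *Hspa8* overlapped, at 0.0155 to 0.0169 in the LKO and 0.0157 to 0.0195 in the f/f libraries.

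*Hspa8* itself, the most abundant member, was 345 and 415 FPKM in the CD-fed f/f libraries, 297 and 343 in the CD-fed LKO libraries, 364 and 299 in the HFD-fed f/f libraries and 300 and 391 in the HFD-fed LKO libraries. The genotypes overlapped on HFD, and on CD the LKO libraries lay below in FPKM but met the f/f libraries after quantile normalization. The log2 differences between genotypes were −0.27 on CD and 0.11 on HFD (standard error 0.17 for each).

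The mitochondrial chaperonin pair differed little. *Hspd1* was 246 and 252 FPKM in the CD-fed f/f libraries, 215 and 226 in the CD-fed LKO libraries, 222 and 227 in the HFD-fed f/f libraries and 199 and 220 in the HFD-fed LKO libraries. After quantile normalization every LKO-labelled library lay below every f/f-labelled library, as 4.84% of all genes tested did in either direction, but in FPKM as deposited they overlapped. LKO minus f/f was −0.17 on CD and −0.09 on HFD (standard error 0.07 for each). *Hspe1*, which shares the start region with *Hspd1*, was 202 and 165, 155 and 174, 164 and 155, and 134 and 157 in the same order of groups, with overlap on each diet. *Hspa1a* lay between 0.0333 and 0.285 FPKM, and its highest library was CD-fed f/f replicate 2. Unlike *Hspa1b* it overlapped between the diets, with 0.098 in the highest HFD and 0.079 in the lowest CD library.

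**Figure D4:**
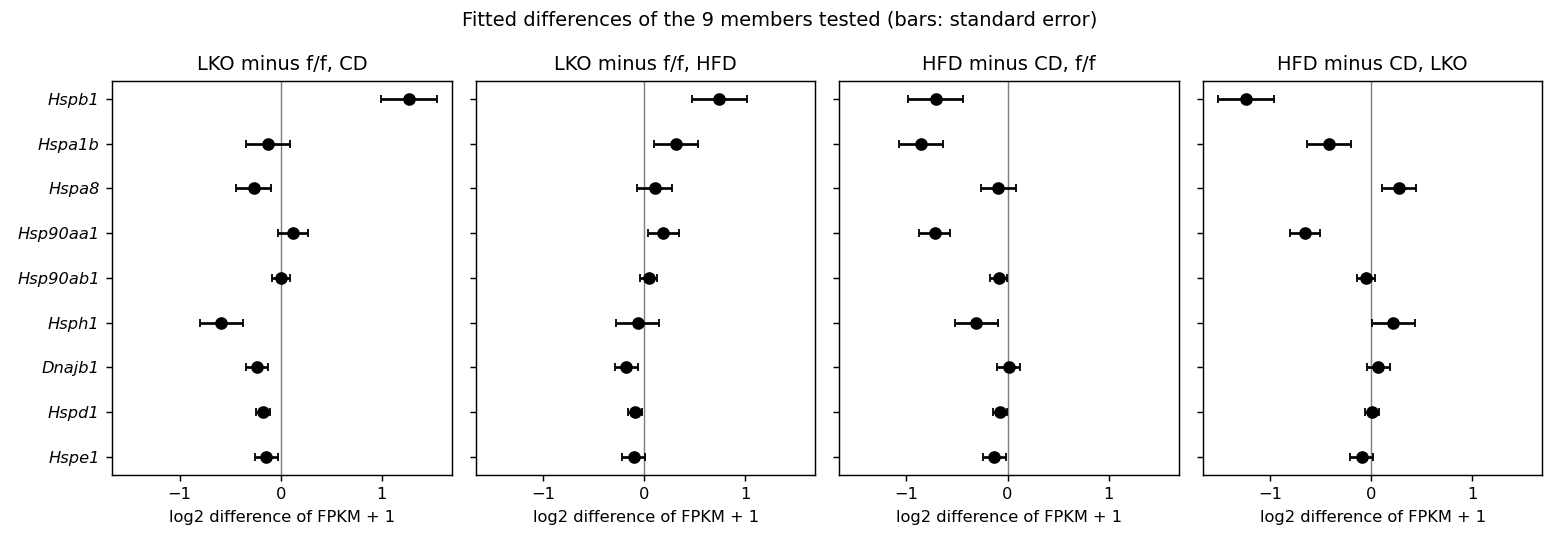
Differences of the 9 members tested in 4 comparisons, on the log2(FPKM + 1) scale, with bars of 1 standard error from the fit over all 8 libraries. *Hspb1* is to the right in the genotype comparisons (1.27 and 0.74) and to the left in the diet comparisons (−0.71 and −1.24), and *Hsp90aa1* is to the left in the diet comparisons (−0.72 and −0.65).

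None of the 9 members had an adjusted p under 0.05 in limma with Benjamini-Hochberg adjustment, and the unadjusted p was under 0.05 for 3 members in the genotype comparison on CD, 1 on HFD, 0 in the difference between the diets, 3 in the diet comparison in f/f mice and 2 in LKO mice. Over all 11634 genes the unadjusted p was under 0.05 for 12.3%, 9.58%, 8.35%, 19.2% and 21.3% in the same order, and nothing is read from the counts of members, which were chosen on these libraries. Over all genes an adjusted p under 0.05 was reached by 0.0172% on CD and 0.043% on HFD for the genotype, by 0.0344% for the difference, and by 1.33% in f/f mice and 3.02% in LKO mice for the diet. Members whose libraries did not overlap numbered 4 for the genotype on CD (1 higher and 3 lower in LKO), where 43% of all genes did so, and 3 on HFD (2 higher and 1 lower), where 42.2% did. For the diet, 4 members were lower and 0 higher without overlap in f/f mice, where 50.3% of genes separated (3055 higher and 2798 lower), and again 4 and 0 in LKO mice, where 52.9% did (3252 higher and 2908 lower). The median log2 difference of the members was −0.14 and 0.04 for the genotype on CD and HFD and −0.13 and −0.05 for the diet in f/f and LKO mice, beside −0.00085, −0.00067, 0.011 and 0.0058 over all genes.

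The other chaperones were read from lists of 5 kinds. These lists too were compiled with results of these libraries known, so that their counts are no independent evidence, and the adjusted p of a gene is over all genes tested. Counts of an unadjusted p under 0.05, here and for the lists below, stand beside the shares over all genes. These were 12.3% for the genotype on CD, 9.58% on HFD and 8.35% for the difference. For diet they were 19.2% in f/f mice and 21.3% in LKO mice. Of 16 further cytosolic Hsp40, Hsp70, Hsp110 and small heat shock genes tested, 0 passed in either genotype comparison in limma, where the unadjusted p was under 0.05 for 4 on CD and 2 on HFD. *Dnaja1*, a J-domain partner of Hsp70, had the lowest value on CD, with 131 and 135 FPKM in f/f and 94.9 and 93.9 in LKO libraries. Its log2 difference was −0.50 on CD and 0.03 on HFD, where the f/f libraries had 131 and 116 FPKM and the LKO libraries 114 and 130. Between the diets it rose in LKO mice by 0.47 (standard error 0.09, limma adjusted p = 0.0425) and was −0.07 in f/f mice. *Dnajb4*, another J-domain gene, was 21.7 and 22.6 FPKM in the CD-fed f/f libraries and 15.1 to 16.6 in all the others, and fell by 0.48 between the diets in f/f mice (limma adjusted p = 0.0385). Neither difference between the genotype effects passed (limma adjusted p = 0.517 for *Dnaja1* and 0.482 for *Dnajb4*). Leaving out any single library removed both of these calls. *Hspa4l*, an Hsp110 relative, had the lowest value for diet in f/f mice, −0.55, and the highest for genotype on HFD, 0.34. *Cryab* was highest on CD (0.20), *Dnajb5* was lowest on HFD (−0.21) and highest for diet in f/f mice (0.20), and none of these passed.

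Of 25 cochaperones of Hsp70 and Hsp90, 0 passed in any comparison in limma, with an unadjusted p under 0.05 for 3 and 2 of them in the genotype comparisons and 4 in each diet comparison. *Fkbp5*, an Hsp90 cochaperone of the glucocorticoid receptor and a target of it, stood lowest in both genotype comparisons. Its FPKM was 21.2 and 23.8 in the CD-fed f/f libraries, 13.8 and 14.2 in the CD-fed LKO libraries, 38.8 and 30.8 in the HFD-fed f/f libraries and 13.1 and 19.3 in the HFD-fed LKO libraries. The LKO libraries lay below the f/f libraries on each diet, with log2 differences of −0.62 (limma adjusted p = 0.27) and −1.05 (limma adjusted p = 0.163). It was also highest for diet in f/f mice at 0.62, whereas *Bag3*, which links Hsp70 to small heat shock proteins and autophagy, was lowest at −0.48. *Fkbp4* at 0.23 on CD and the myosin chaperone *Unc45a* at 0.23 on HFD were the highest for genotype.

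Among 13 mitochondrial chaperones and proteases, 0 passed in limma, with an unadjusted p under 0.05 for 4 in the genotype comparison on CD, 1 on HFD, 3 for diet in f/f mice and 5 in LKO mice. *Clpx*, the unfoldase of the ClpXP protease of the matrix, was highest in both genotype comparisons (0.60 and 0.72) and for diet in f/f mice (0.55). It was 26.6 and 25.7 FPKM in the CD-fed f/f libraries and 49.3 and 31.8 in the CD-fed LKO libraries, then 37.3 and 38.5 in the HFD-fed f/f and 70.2 and 53.0 in the HFD-fed LKO libraries. Its protease partner *Clpp* was lowest on HFD (−0.20), the matrix Hsp70 *Hspa9* was lowest on CD (−0.10) and its exchange factor *Grpel1* was lowest for diet in f/f mice (−0.08). Of 14 genes of the cytosolic chaperonin TRiC and of prefoldin, 0 passed, with an unadjusted p under 0.05 for 2 in each genotype comparison, 2 for diet in f/f mice and 4 in LKO mice. Their extremes were prefoldin genes, with *Pfdn2* (−0.41) and *Pfdn1* (0.11) on CD, *Pfdn6* (−0.29) and *Pfdn2* (0.05) on HFD, and *Pfdn2* (−0.27) and *Pfdn4* (0.19) for diet in f/f mice.

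All 18 chaperones of the endoplasmic reticulum (ER) tested had a log2 difference below 0 for diet in f/f mice, with a median of −0.40. The libraries did not overlap for 16 of them, as for 50.3% of all genes in either direction. In limma 0 passed the adjustment and 11 had an unadjusted p under 0.05, beside 19.2% of all genes. Without CD-fed f/f replicate 2, which held the highest value of many ER chaperones, 17 of 18 lay below 0 with a median of −0.27. In LKO mice 14 of 18 lay below 0 with a median of −0.22, and 3 passed, where 3.02% of all genes did. *Sdf2l1*, a partner of the ER Hsp70, fell by 1.31 (limma adjusted p = 0.0357), the disulfide isomerase *Pdia6* fell by 0.55 (limma adjusted p = 0.0358) and *Sil1*, an exchange factor of the ER Hsp70, fell by 0.40 (limma adjusted p = 0.0469). *Sdf2l1* was 12.01 and 15.7 FPKM in the CD-fed LKO libraries and 3.85 and 6.07 in the HFD-fed ones, and in f/f mice 11.8 and 14.8 on CD and 7.18 and 5.30 on HFD. Without any single library the calls of *Sdf2l1* and *Sil1* were lost, and that of *Pdia6* remained in 1 of 8 cases. For the genotype, 15 of 18 were below 0 on each diet with medians of −0.14 and −0.10. By limma 0 passed, and the unadjusted p was under 0.05 for 4 on CD and 0 on HFD. Without CD-fed f/f replicate 2, 14 of 18 lay below 0 on CD with a median of −0.09. The lowest on CD was *Dnajb9* at −1.08, with 60.7 and 97.1 FPKM in f/f and 31.5 and 39.3 in LKO libraries, and CD-fed f/f replicate 2 held its highest value. *Manf* was lowest on HFD (−0.34), *Sdf2l1* and *Pdia4* were highest for genotype (0.07 on CD and 0.08 on HFD), and *Dnajc1* was highest for diet in f/f mice (−0.02).

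**Figure D5:**
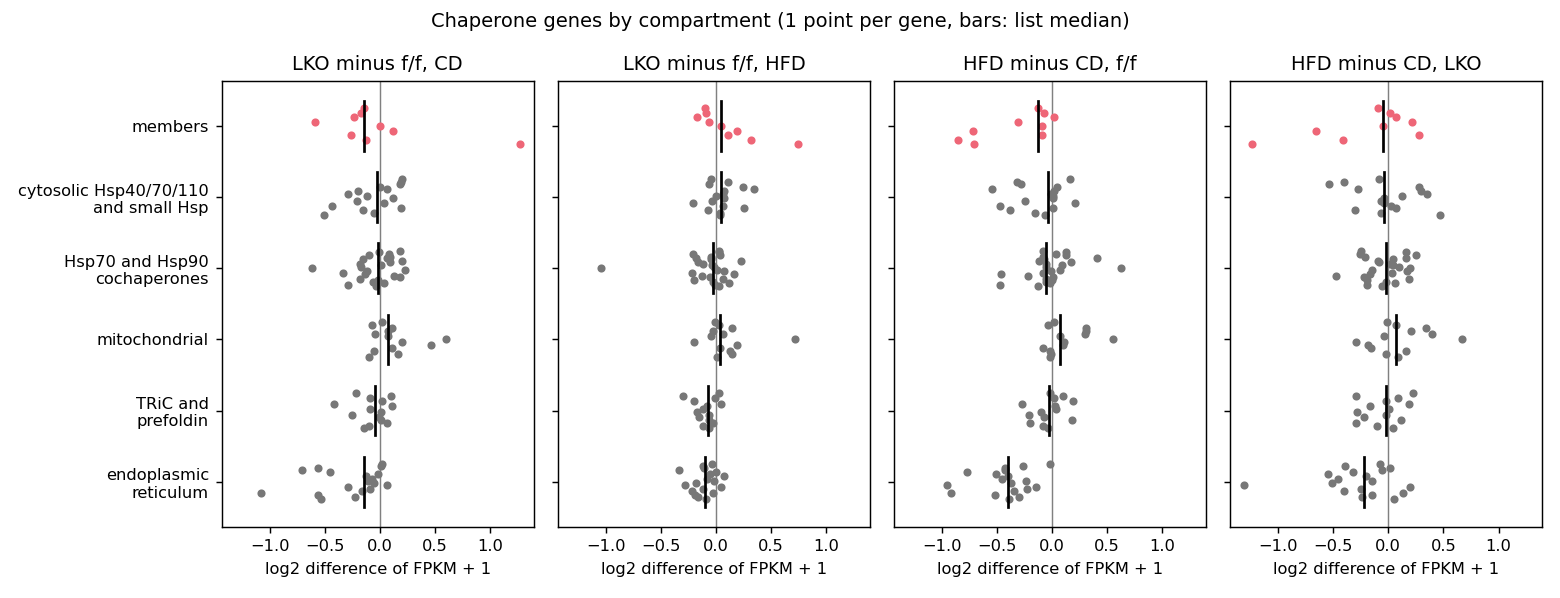
Log2 differences of FPKM + 1 for the 9 members (red) and the genes of 5 chaperone lists (grey), 1 point per gene, with the list median as a black bar, in 4 comparisons. The ER list lies to the left of 0 for diet in f/f mice (median −0.40), and the median of the members lies between −0.14 and 0.04 in the 4 comparisons.

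Of the factors that govern these genes, *Hsf1* was 5.19 and 5.20 FPKM in the CD-fed f/f libraries, 5.29 and 5.47 in the CD-fed LKO libraries, 5.82 and 5.38 in the HFD-fed f/f libraries and 4.56 and 4.56 in the HFD-fed LKO libraries. LKO minus f/f was 0.04 on CD and −0.24 on HFD, and the difference between these did not pass (−0.28, standard error 0.10, limma adjusted p = 0.576). *Hsf2* was −0.31 and 0.07, *Hsf4* was 0.27 and −0.06, and the Hsf1-binding protein gene *Hsbp1* was 0.05 and 0.18, on CD and HFD, and 0 of the 4 passed in any comparison in limma, with an unadjusted p under 0.05 for 1, 2, 1, 0 and 0 of them in the 5 comparisons. Messenger RNA levels do not report the activity of these factors.

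*Cirbp*, an RNA-binding protein gene induced by cold and lowered by heat, rose between the diets. It was 13.9 and 13.8 FPKM in the CD-fed f/f libraries, 14.97 and 14.3 in the CD-fed LKO libraries, 20.7 and 22.4 in the HFD-fed f/f libraries and 20.4 and 20.4 in the HFD-fed LKO libraries. No CD library reached an HFD library. The rise was 0.64 in f/f mice (standard error 0.07, limma adjusted p = 0.0249) and 0.48 in LKO mice (standard error 0.07, limma adjusted p = 0.0251). Leaving out single libraries kept the call in 1 of 8 cases in f/f and 2 of 8 in LKO mice. *Rbm3*, also cold-inducible, was 0.20 and 0.15 and did not pass.

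*Rora* FPKM covers the whole gene and not the deleted exons, and lay at 7.56 to 8.85 in f/f-labelled and 7.30 to 8.18 in LKO-labelled libraries, so that it did not check the labels. Hepatocyte markers other than *Alb* summed to 16953 to 18619 FPKM, and *Alb* was listed at 0 in 4 libraries and at 29902 to 30888 in the others, so that it was not read as a level. Single hepatocyte markers did differ between the diets. Of the 8 tested, 1 passed as higher and 1 as lower on HFD in f/f mice in limma, and 1 as higher in LKO mice. For the genotype 0 passed. After quantile normalization 2 were higher and 1 lower in all 4 HFD libraries than in all 4 CD libraries. The summed FPKM of 8 stellate cell and fibroblast markers was 40.0 to 63.3 on CD and 70.3 to 96.8 on HFD, mostly *Dcn*. The 8 markers did not all lie on the same side of 0. For diet, 4 were above and 4 below 0 in f/f mice (median 0.06), and 6 above and 2 below in LKO mice (median 0.21). In limma 0 passed, with an unadjusted p under 0.05 for 1 in f/f mice and 3 in LKO mice. After quantile normalization 3 of the 8 were higher in all 4 HFD libraries than in all 4 CD libraries, where 16.7% of all genes separated in either direction. All 8 Kupffer cell markers were below 0 for diet in f/f mice (median −0.33), and all were above 0 for diet in LKO mice (median 0.22) and for genotype on HFD (median 0.39). For genotype on CD 7 of the 8 were below 0 (median −0.25), and 0 passed in limma, with an unadjusted p under 0.05 for 1 on CD, 3 on HFD, 2 for diet in f/f mice and 0 in LKO mice. Their sums were 63.9 to 111 FPKM on HFD and 79.9 to 108 on CD. All 8 endothelial markers were above 0 for diet in f/f mice (median 0.16) and in LKO mice (median 0.24). In limma 0 of them passed, with an unadjusted p under 0.05 for 1 in each. The endothelial sums overlapped, at 51.5 to 65.7 FPKM on CD and 61.6 to 78.4 on HFD. The 5 adipocyte markers summed to at most 0.552. CD-fed f/f replicate 2 had the largest share of FPKM in its 10 most abundant genes (43.7%). The single entry ENSMUSG00000093077 stood at 183794 FPKM there and at 15648 to 42850 in the other libraries. Without this replicate the diet difference of *Hspa1b* in f/f mice was −0.60. Of 14 immediate early genes tested, which respond within minutes to stress, 10 were below and 4 above 0 for diet in each genotype. They ran from −1.32 to 0.59 in f/f mice and from −1.84 to 0.52 in LKO mice. Passing in limma were *Dusp1* in f/f mice and *Dusp1* and *Nr4a1* in LKO mice, all lower on HFD, beside 1.33% and 3.02% of all genes. The part of these in the diet and genotype differences of the members was not tested.

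The mean profile of the 9 tested members over the 8 libraries was compared with 5902 other genes with FPKM above 5 in every library. The members did not share 1 profile. Pearson r between 2 members ran from −0.50 (*Hspb1* and *Dnajb1*) to 0.86 (*Hspa8* and *Hsph1*). The mean was not scaled per gene, so that members with a wide spread, such as *Hspb1*, weighed more in it. Among the 10 most alike were *Snrpa* (Pearson r 0.96, Spearman rho 0.98), *Susd4* (r 0.96), *Stk40* (r 0.95), *Slc22a30* (r 0.94), *Huwe1* (r 0.94), *Gm13773* (r 0.94), *Osbpl9* (r 0.93), *Birc6* (r 0.92) and *Fetub* (r 0.92), and the most opposed were *Gbe1* (r −0.98), *Cd2bp2* (r −0.97), *Slc40a1*, *Top1mt* and *Zfp277* (r −0.95 each). These are the extremes of 5902 values over 8 libraries that also share groups, and are given as a description. In *Snrpa* the CD libraries held 14.5 to 16.0 FPKM and the HFD libraries 10.8 to 13.3.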

How the data were processed

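Per the labels and the methods of the study, the authors prepared poly(A) libraries (Illumina TruSeq), trimmed reads with cutadapt 1.0, aligned them to GRCm38 with TopHat2 2.0.7 and estimated expression with Cufflinks (version not given in the sources used here). The authors deposited FPKM for 38283 genes in 8 libraries, with 0 columns of other samples. Read counts and depth were not used here, so that no counting interval is given. Genes exceeding FPKM 1 numbered 10587 to 10706 per library.

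Symbols and coordinates of 36341 genes came from the GENCODE M21 annotation (GRCm38). The 11634 genes that exceeded FPKM 1 in any library were put on the log2(FPKM + 1) scale, quantile normalized and fitted with limma 3.58.1 in R 4.3.3, with 1 mean per group and a trend of variance with level, and two-sided p-values were adjusted per comparison by the Benjamini-Hochberg method. With 2 libraries per group the fit has 4 residual degrees of freedom, to which moderation added 2.80. P-values measure the spread between pools of 2 mice. The permutation procedure of the study regroups the libraries and was not run. The steps were tested on simulated data.

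The members and gene lists were chosen with earlier results of these data known. Named are all members, genes of the chaperone lists with an adjusted p under 0.05 and the highest and lowest gene of each chaperone list in the genotype comparisons and for diet in f/f mice, and all heat shock factors, regulators and cold-inducible genes. For the immediate early and marker lists the gene with the largest difference may be named. The profile of the members omits Hspa1a, which was not normalized. Of the genes most like this profile, 1 is not reported here. Same-numbered libraries of the groups come from different animals. *Hspb8*, *Dcn* and the ratios were chosen after values had been seen, as was the count of ER chaperones without 1 library.

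Alternatives were no normalization, median centring, an added 0.1 in place of 1, a filter of FPKM above 1 in every library or above 0 in any, the replicate number as a block, no variance trend, separate fits of each comparison and each library left out. RefSeq windows and transcripts gave sequences, and Biopython 1.88 aligned them.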

Additional observations from a re-analysis of the deposited data

How the results depend on the processing

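No alternative turned the sign of a called value. The median difference of the members for the genotype on HFD (0.04) changed sign, running from −0.07 to 0.17 when 1 library was left out and from −0.02 to 0.04 under the other alternatives, and that of the difference between the diets (0.07) ran from −0.0064 to 0.17 when 1 library was left out. Of 706 member values recomputed under alternatives, 670 moved by less than 1 SD of the libraries and 36 by more, 25 of these when 1 library was left out. This count is no measure of stability. The replicate block, the dropped trend and the separate fits cannot change a log2 difference. A left-out library outside a comparison acts only through filter and normalization, and the SD comes from these same libraries. Signs could turn within 1 SD, as for *Hsp90aa1* and the genotype on CD, which ran from −0.05 to 0.30. Members with an adjusted p under 0.05 numbered 1 for diet in f/f mice (*Hsp90aa1*, limma adjusted p = 0.0448) and 2 in LKO mice (*Hspb1* and *Hsp90aa1*, limma adjusted p = 0.0351 and 0.044) with FPKM above 1 in all 8 libraries, where fewer genes are tested, and 0 under every other alternative. The count of genes over all genes moved more. For the genotype on CD (2) it was 1 with a pseudocount of 0.1, 7 with FPKM above 1 in all 8 libraries, 10 with FPKM above 0, 4 without the trend and 0 in a fit of that comparison alone. On HFD (5) it was 24 with FPKM above 0. For the difference between the diets (4) it was 2 with a pseudocount of 0.1, 0 with FPKM above 1 in all 8 libraries and 19 with FPKM above 0. For diet in f/f mice (155) it was 323, 46, 34, 42 and 5, and in LKO mice (351) it was 570, 135, 223, 229 and 0, with FPKM above 1 in all 8 libraries, FPKM above 0, the replicate block, no trend and the comparison alone. Leaving out 1 library gave 2 to 19, 4 to 21, 10 to 21, 14 to 49 and 21 to 154 genes for these 5 comparisons in the same order. Apart from the alternatives whose own construction changes the genes or libraries tested, the cause was not tested. The deviations of same-numbered libraries correlated at Pearson r 0.145 on CD and 0.0878 on HFD, and at 0.0211 and 0.0236 without genes listed at 0, so the numbers were not read as pairs. FPKM without counts limits what can be said of *Hspa1a* and *Hspa1b*, and 2 libraries per group limit all comparisons.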
